A study of Mus musculus with 10 samples.

Results

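The comparison set the Sox2-positive fraction of reprogramming mouse cells, sorted after 32 days, against mouse induced pluripotent stem cells (iPSC) kept with mouse embryonic fibroblasts (MEFs). The samples were taken by their labels, 2 arrays in each group, which are 4 of the 10 Affymetrix arrays in the series. The cells of the Sox2-positive fraction came from secondary MEFs. In these fibroblasts the 4 reprogramming genes of Yamanaka (Pou5f1, Sox2, Klf4 and Myc) can be induced. The cells of the fraction were taken at day 32. They had been separated by RNA FACS, in which cells are fixed, a target RNA is labelled with fluorescent probes and the cells are sorted by that signal. The iPSC of the reference group (iPSC MEF) were in co-culture with MEFs. The Sox2-negative fraction of the same 32-day culture condition and iPSC grown with serum and 2i, a pair of inhibitors of GSK3 and of ERK signalling (iPSC 2i), serve below only as further points of reference. All groups had standard medium for mouse embryonic stem cells unless stated otherwise, per the labels. The labels do not say whether the MEFs were removed before RNA was taken, whether the factors were still being induced at day 32, or whether both groups derive from the same line. In bulk RNA, fewer cells of a type and less RNA per cell cannot be told apart.

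Pluripotent cells of the mouse are held in a self-renewing state by a network around Pou5f1, Sox2 and Nanog, which in the naive state also includes Esrrb, Zfp42, Klf2 and Tfcp2l1. During reprogramming the fibroblast programme is lost first, an epithelial state follows, and the endogenous network comes on late, with Sox2 among the late genes. Full stabilisation also involves Wnt, BMP and LIF signals and the rebuilding of DNA methylation and Polycomb marks. The question the comparison answers is which genes freshly reprogrammed cells that already hold Sox2 RNA still lack, and which they still hold, next to iPSC in culture.

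The labelled identity held in the markers. All 9 pluripotency markers looked at exceeded a log2 value of 4 on both Sox2-positive and both iPSC MEF arrays, against 6 and 5 of 9 on the Sox2-negative arrays. Their summed level was 13.63 and 13.86 in Sox2-positive cells, 14.30 and 14.39 in iPSC MEF, and 10.92 and 11.68 in Sox2-negative cells, on the log2 scale. Pairs of values here and below are arrays a and b of a group, as deposited log2 values unless another scale is named. Sox2 itself had chosen the cells of the fraction, so its level there is partly set by the sort.

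The 4 compared arrays belong to the class with high signal from the 18S ribosomal RNA control, between 11.35 and 13.20. The median over the 8599 tested genes was 6.03 and 6.08 on the Sox2-positive arrays, below 6.53 and 6.48 on the iPSC MEF arrays. The iPSC 2i arrays are of the other class, with an 18S signal of 5.25 and 5.96 and a tested-gene median of 7.76 and 7.74. Their values are given below as deposited, so a gene can lie higher there with its array, and no order against iPSC 2i was tested. The gap between the 3' and the 5' control probe sets of Actb was 0.09 and 0.21 in Sox2-positive cells and 1.12 and 1.08 in iPSC MEF, and for Gapdh 1.03 and 1.25 against 3.18 and 2.53. Differences in RNA quality or amplification thus cannot be told apart from the groups. The median absolute difference between replicate arrays was 0.39 in the Sox2-positive fraction and 0.25 in iPSC MEF. Nothing in the labels tells whether arrays a and b of a group came from separate cultures. The p-values cover the spread between these arrays, which may be technical, and an exact two-sided permutation test of 2 arrays against 2 cannot give a p under 0.33.

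More genes lay below the iPSC MEF level than above it in Sox2-positive cells. On the deposited values limma called 527 of 8599 genes higher (6.13%) and 2561 lower (29.8%), at an adjusted p under 0.05. The median difference of all genes was -0.455 log2, so part of this excess follows the lower array medians. With each array centred on its median the calls were 1009 higher and 1159 lower, and after quantile normalization 630 higher and 968 lower. Only genes called in the same direction on all 3 scalings are said below to have risen or fallen. These were 456 risen (5.3%) and 732 fallen genes (8.51%), and against these last 2 shares the gene lists are read.

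**Figure D1:**
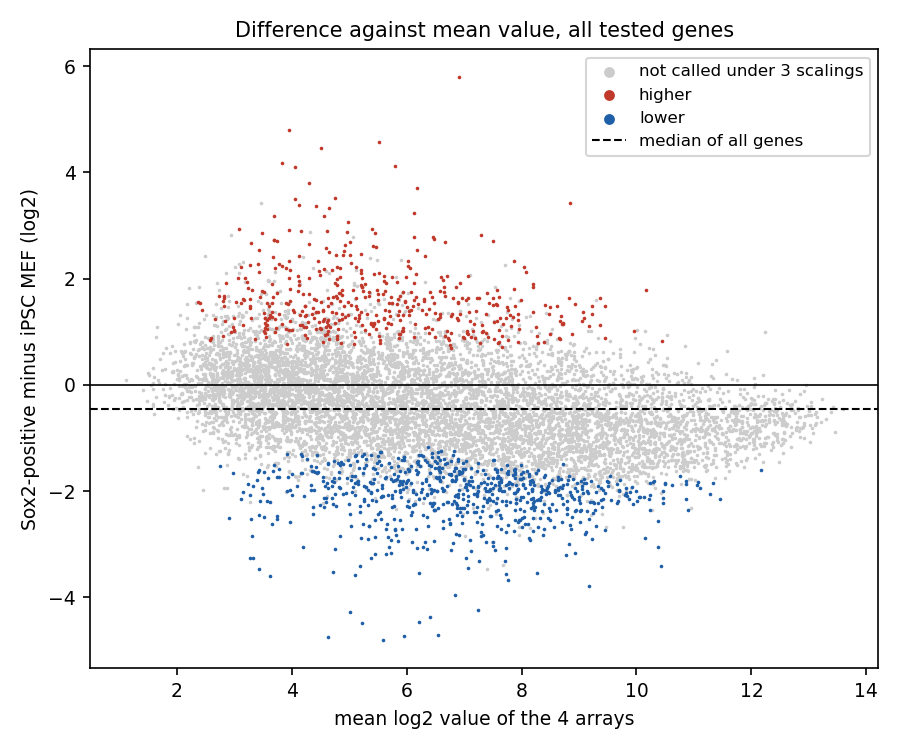
Difference between Sox2-positive and iPSC MEF cells (log2, vertical axis) against the mean log2 value of the 4 arrays (horizontal axis) for 8599 genes, with the 456 risen genes in red, the 732 fallen genes in blue and a dashed line at the median of all genes, -0.455. The dashed line lies below 0, and the uncalled genes scatter around it.

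How firmly a call held depended on single arrays. Of the 1188 genes called on 3 scalings, 798 were still called on the deposited values without iPSC MEF array a, 856 without iPSC MEF b, 916 without Sox2-positive a and 1032 without Sox2-positive b, and 736 under every one of these omissions. On all 3 scalings only 5 of them remained without iPSC MEF a (Col1a2, Dnajc12, Gbp2, Sp5 and Tgfbi), 274 without iPSC MEF b, 473 without Sox2-positive a and 815 without Sox2-positive b. The counts for gene lists below therefore go to 0 without iPSC MEF a, apart from those 5 genes. Where a named call was lost on the deposited values, the omitted array is given with its adjusted p. In the sentences below a difference is Sox2-positive minus iPSC MEF with its standard error from limma (n = 2 arrays a group). Where a group lay under 4 on both arrays, a fold is given only as a lower limit.

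Pluripotency genes of the Sox2-positive fraction lay both near the iPSC MEF level and apart from it. Nanog, Dppa5a, Utf1 and Lin28a were near it, whereas Sox2, Pou5f1, Zfp42, Sall4, Gdf3 and Dppa2, given further on, lay apart without overlap of the arrays. Nanog, a transcription factor at the centre of the network, was at 10.86 and 11.33 against 11.23 and 11.54 in iPSC MEF. Dppa5a, an RNA-binding protein of pluripotent cells, was at 12.25 and 12.32 against 12.40 and 12.70. Utf1, a chromatin-bound factor that comes on late in reprogramming, was at 8.81 and 8.49 against 8.79 and 9.02. The arrays of the groups overlapped for Nanog and Utf1 and lay apart by a small step for Dppa5a. None of the 3 passed the test (adjusted p = 0.56, 0.77 and 0.748), and each difference turned positive after centring, so no difference was resolved with 2 arrays a group. Lin28a, which blocks let-7 processing, overlapped as well, at 8.53 and 7.55 against 8.49 and 8.95. In the Sox2-negative fraction Nanog stood at 8.86 and 7.92, Dppa5a at 3.73 and 6.13, Utf1 at 3.43 and 3.52 and Lin28a at 2.71 and 1.74.

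Of the 4 Yamanaka factors none passed in limma on all 3 scalings, while 1 was called on the deposited values and 2 had an unadjusted p under 0.05. Sox2 was at 9.46 and 10.45 in the Sox2-positive fraction against 11.24 and 11.50 in iPSC MEF, with both sorted arrays below both iPSC arrays, and at 4.45 and 4.13 in the Sox2-negative fraction. Its difference of -1.42 ± 0.39 was called on the deposited values (adjusted p = 0.0208) but not after centring (0.0883) or quantile normalization (0.337), nor without iPSC MEF a (0.0771), iPSC MEF b (0.111) or Sox2-positive a (0.125). Pou5f1 went the other way, at 10.92 and 10.38 against 9.51 and 9.75, and missed the threshold only on the deposited values (adjusted p = 0.0517, against 0.0179 after centring and 0.0153 after quantile normalization). Klf4 was at 10.12 and 9.71 against 11.06 and 10.71 (adjusted p = 0.197), while its other kept probe set was lower by more (means 8.89 against 11.12, adjusted p = 0.019). The mean of its probe sets missed the threshold (adjusted p = 0.052), and the compared arrays fitted alone called it (0.0493). For Myc the sorted arrays were far apart, 9.37 and 6.58 around 9.25 and 9.26 in iPSC MEF (adjusted p = 0.323). The labels do not say whether these probe sets also read the induced copies.

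Among 22 tested genes of naive pluripotency 2 rose and 1 fell, 9.09% and 4.55%, while on the deposited values alone 10 were called lower. The median difference of the list was -0.89, against -0.455 for all genes. The gene that fell was Dppa3 (Stella), a maternal factor that guards methylation marks in the early embryo and marks naive cells and germ cells. It was at 7.92 and 6.74 against 10.54 and 10.10, both sorted arrays lower by over 2 log2 units, a 7.94-fold fall (difference -2.99 ± 0.58, adjusted p = 0.0055). Its adjusted p reached 0.05 without iPSC MEF a. In iPSC 2i Dppa3 stood at 6.09 and 6.90, close to the sorted cells.

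Pecam1, an adhesion receptor found on the inner cell mass and on naive cells, was the firmest rise of that list. It measured 6.80 and 7.57 in Sox2-positive cells and 4.93 and 4.79 in iPSC MEF, which is 5.01-fold (difference 2.33 ± 0.37, adjusted p = 0.00273). Pecam1 is also a marker of endothelial cells. Of the endothelial markers Cdh5, Tie1, Kdr and Esam were under the filter and Tek was at 5.72 and 4.25 against 4.43 and 3.77 (adjusted p = 0.212). Tcl1, a cofactor of the kinase Akt, rose from 7.22 and 6.41 to 8.40 and 8.25, but lost its call on leaving out any of the 4 arrays (adjusted p between 0.0797 and 0.248). Zfp42, Klf2 and Tfcp2l1, 3 transcription factors of the naive network, were called lower on the deposited values. Tfcp2l1 stood at 6.75 and 6.96 against 8.59 and 8.41, Klf2 at 7.12 and 7.28 against 9.42 and 8.93, and Zfp42 at 9.15 and 10.16 against 10.91 and 11.07. After quantile normalization their adjusted p values were 0.127, 0.113 and 0.502, and without iPSC MEF a on the deposited values 0.0806, 0.0962 and 0.137. Esrrb, a nuclear receptor of the same network, was not called, at 9.11 and 9.47 against 10.22 and 9.79, and its difference turned to 0.047 after quantile normalization.

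Among 18 genes of general pluripotency and late reprogramming 1 fell, Thap11 (Ronin), a zinc finger factor needed for growth of embryonic stem cells. It measured 7.14 and 7.03 against 9.27 and 9.19, a 4.42-fold fall (difference -2.15 ± 0.22, adjusted p = 0.000867), and the call held without any one of the 4 arrays. The Sox2-negative fraction had a like level of Thap11, 7.39 and 7.43. Sall4, Gdf3 and Dppa2 were lower on the deposited values but passed neither after centring nor after quantile normalization. The other kept Sall4 probe set moved by 0.065 in the other direction (adjusted p = 0.894). Of 12 primed epiblast genes, those of the later, post-implantation state, 1 rose and 1 fell. The rise was Zic2, at 7.95 and 7.55 against 6.31 and 6.90, which lost its call on leaving out any array (adjusted p between 0.0621 and 0.238). Sycp1, of the synaptonemal complex of meiosis, was the 1 of 14 germ cell and 2-cell stage genes to rise, at 5.39 and 5.92 against 3.51 and 3.42, and was lost without any array as well (0.0509 to 0.0928).

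**Figure D2:**
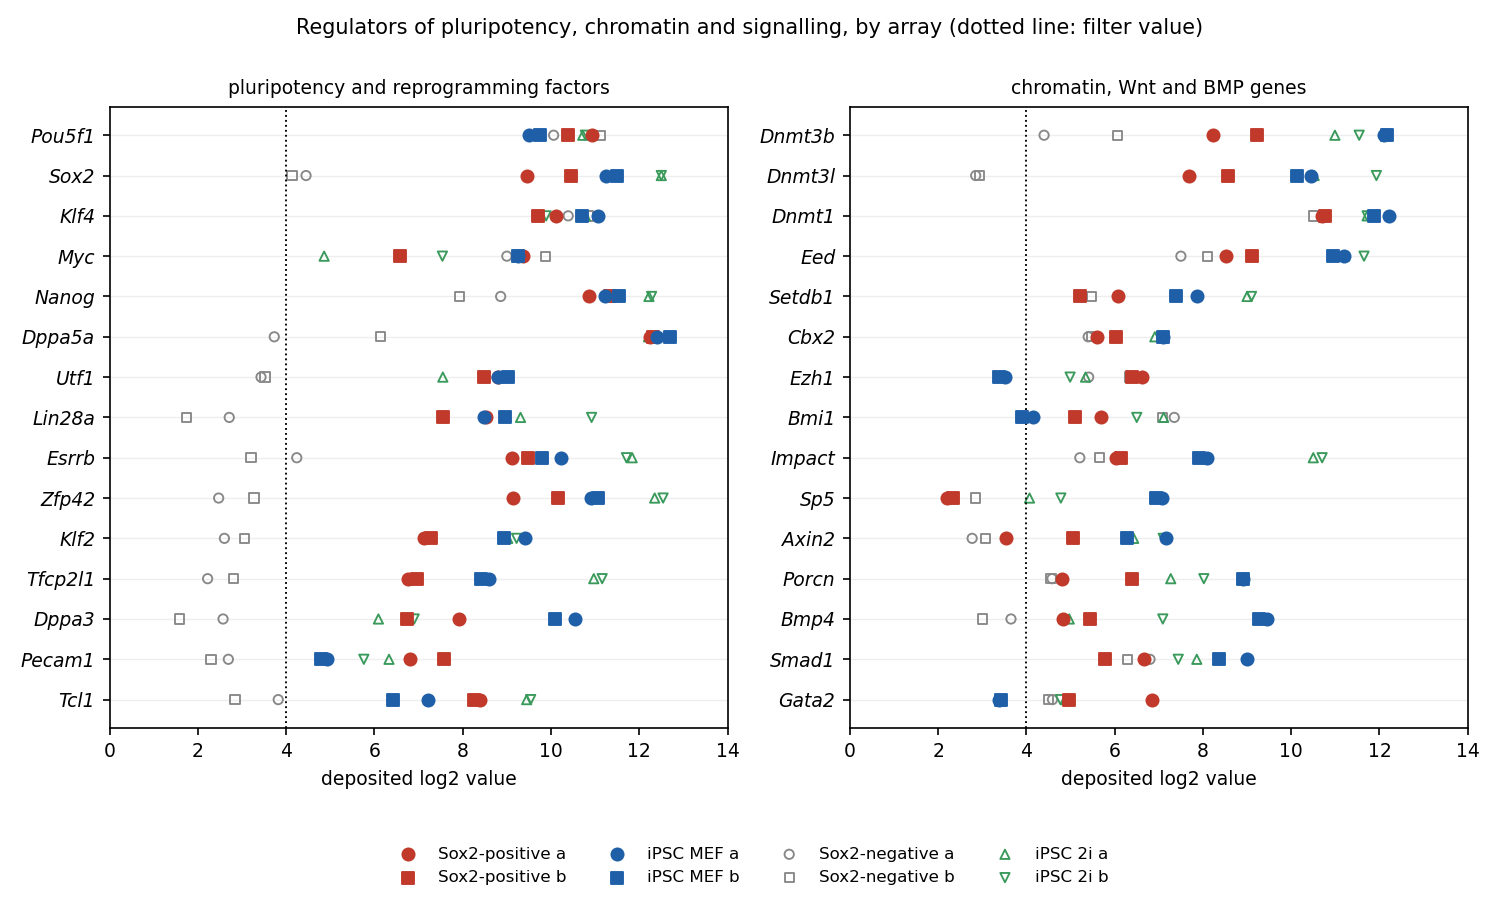
Deposited log2 value (horizontal axis) of 30 regulators on each array of 4 groups, with filled symbols for the compared groups, open symbols for the others and a dotted line at the filter value of 4. Red and blue symbols overlap for Nanog, Utf1 and Lin28a and lie wide apart for Dnmt3b, Sp5, Porcn and Bmp4.

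Of 15 genes of DNA methylation and its removal 1 fell on all 3 scalings, Dnmt3b (6.67% of the list, below the share over all genes). Dnmt3b, the de novo methyltransferase most abundant in the epiblast, was at 8.23 and 9.23 in Sox2-positive cells and at 12.10 and 12.18 in iPSC MEF. Both sorted arrays lay over 2.5 log2 units below both iPSC arrays, a 10.6-fold fall (difference -3.41 ± 0.56, adjusted p = 0.00293) that was still called on the deposited values without each array. The Sox2-negative fraction had 4.40 and 6.07, so the sorted positive cells stood between that fraction and iPSC MEF. Dnmt3l, the cofactor of the de novo enzymes, was lower on the deposited values (7.69 and 8.56 against 10.45 and 10.12, adjusted p = 0.0273) but not after centring (0.0716), nor without iPSC MEF a (0.135), iPSC MEF b (0.0889) or Sox2-positive a (0.143). Dnmt1, the maintenance enzyme, was lower too (10.69 and 10.76 against 12.21 and 11.87, adjusted p = 0.00407) and lost the call after quantile normalization (0.181).

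Polycomb subunits changed in both directions. Polycomb complexes place repressive marks on histones, with Eed and an Ezh subunit in PRC2 and a Cbx subunit and Bmi1 in PRC1. Eed, the core subunit that reads the PRC2 mark, fell from 11.20 and 10.94 to 8.53 and 9.12, which is 4.74-fold (difference -2.25 ± 0.34, adjusted p = 0.00213). Cbx2, a chromodomain subunit of PRC1, fell from 7.09 and 7.09 to 5.6 and 6.02 (adjusted p = 0.0055). Ezh1, the less active paralogue of the PRC2 methyltransferase and the one typical of slowly dividing cells, rose from 3.52 and 3.38 to 6.63 and 6.39, at least 5.70-fold (difference 3.06 ± 0.35, adjusted p = 0.00107). These 3 calls held on the deposited values without any one array. Ezh1 was at 5.41 and 6.34 in the Sox2-negative fraction and at 5.34 and 4.99 in iPSC 2i, so iPSC MEF was the low group. The other kept Ezh1 probe set rose by only 0.93 (means 5.095 against 4.165, adjusted p = 0.0324). The other kept Cbx2 probe set moved by -0.535 and was not called (adjusted p = 0.129).

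Bmi1 rose from 4.14 and 3.90 to 5.70 and 5.10, below both the Sox2-negative fraction (7.35 and 7.09) and iPSC 2i (7.11 and 6.50), and lost its call without iPSC MEF a (adjusted p = 0.0568), iPSC MEF b (0.0791) or Sox2-positive a (0.0759). Setdb1, an H3K9 methyltransferase that silences retroviruses, fell from 7.86 and 7.40 to 6.07 and 5.21 (adjusted p = 0.00275), but another of its probe sets moved by 0.295 in the other direction and the mean of its probe sets was not called (0.142). In all 2 of 26 genes of this list rose and 3 fell, 7.69% and 11.5%, near the shares over all genes.

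Imprinted genes, expressed from the chromosome of a single parent, mostly gave no call. Of 23 tested, 1 passed: Impact, an inhibitor of the kinase Gcn2, fell from 8.10 and 7.90 to 6.02 and 6.14 (difference -1.92 ± 0.25, adjusted p = 0.00151). The noncoding RNAs Meg3 and Rian of the Dlk1-Dio3 cluster, whose loss marks poorly competent iPSC, were faint in both groups. Meg3 was at 3.30 and 3.48 against 3.77 and 4.39, and Rian at 4.46 and 4.61 against 4.62 and 5.08, both uncalled (adjusted p = 0.292 and 0.56). The sign of the Rian difference turned after centring (0.14). Dlk1 was above 4 on Sox2-positive array a alone (5.14, against 1.89 on array b).

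Several genes of canonical Wnt signalling were low in the Sox2-positive fraction. Wnt ligands stabilise beta-catenin, which acts with TCF and LEF factors at target genes and supports self-renewal of naive cells. Sp5, a direct beta-catenin target, and Axin2, the feedback inhibitor and common reporter of the pathway, are the targets whose upstream sequence is shown here. Each sequence is the 250 bases before the gene's start from RefSeq (GRCm38.p6), 5' to 3' on the gene's strand, with matches to the TCF and LEF core letters CTTTGAA or CTTTGAT, searched on both strands, in capitals.
Sp5: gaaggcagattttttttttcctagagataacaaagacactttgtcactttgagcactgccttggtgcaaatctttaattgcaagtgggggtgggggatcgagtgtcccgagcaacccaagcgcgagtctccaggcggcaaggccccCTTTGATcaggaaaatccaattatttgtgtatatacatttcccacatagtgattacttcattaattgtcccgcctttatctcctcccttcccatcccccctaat
Axin2: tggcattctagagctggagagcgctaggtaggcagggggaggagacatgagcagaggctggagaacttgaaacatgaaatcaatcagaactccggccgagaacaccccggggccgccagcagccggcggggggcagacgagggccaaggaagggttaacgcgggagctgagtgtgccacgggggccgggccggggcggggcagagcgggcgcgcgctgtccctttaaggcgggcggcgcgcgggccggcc
The Sp5 window lies at chr2:70474673-70474922 on the plus strand and holds 1 match, 104 bases before the start. The Axin2 window, chr11:108920099-108920348 on the plus strand, has none of these letters. Of 32851 RefSeq windows of this length 7.5% hold a match, and of the 9091 windows of tested genes 5.2%. Among the 12 Wnt list genes that have a window Sp5 was the only one with a match. A match is a description of the letters and not a binding site.

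Sp5 fell from 7.07 and 6.93 in iPSC MEF to 2.20 and 2.33 in Sox2-positive cells, at least 8.0-fold (difference -4.74 ± 0.32, adjusted p = 0.000847). Both values of the sorted cells are in the background range, as were those of the Sox2-negative fraction (2.26 and 2.85), while iPSC 2i had 4.07 and 4.78. Sp5 was 1 of the 5 genes called on 3 scalings under every omission. Axin2 fell from 7.16 and 6.29 to 3.54 and 5.05, 5.39-fold (adjusted p = 0.0121), and lost its call without iPSC MEF a (0.0928) or Sox2-positive a (0.0735). Porcn, the acyltransferase that Wnt ligands need for secretion, fell from 8.91 and 8.90 to 4.81 and 6.39, 9.88-fold (difference -3.31 ± 0.47, adjusted p = 0.00181), and held without each array.

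The rises in the Wnt list were Wnt5a and Nkd2. Wnt5a, a ligand that mostly acts outside the beta-catenin route and is abundant in mesenchyme, was at 7.73 and 4.49 against 1.85 and 2.17 in iPSC MEF, at least 4.32-fold (adjusted p = 0.0206). Array a lay over 3 log2 units above array b, the Sox2-negative fraction had 8.11 and 5.51, and the call was lost without iPSC MEF a (0.106), iPSC MEF b (0.0825) or Sox2-positive a (0.128) and with the mean of its probe sets (0.0698). Nkd2, a Dishevelled antagonist, rose only just above the filter, to 4.06 and 4.26, and lost its call without iPSC MEF b (0.084). Of 20 tested Wnt genes 2 thus rose and 3 fell, with a median difference of -1.19, or -0.77 with faint genes held at the limit of 4, against -0.455 for all genes.

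The BMP ligand gene Bmp4 and its transducer Smad1 fell together. BMP signals act through Smad1 and induce Id genes, which help to hold embryonic stem cells undifferentiated with LIF. Bmp4 fell from 9.46 and 9.27 to 4.82 and 5.43, 18.9-fold (difference -4.24 ± 0.66, adjusted p = 0.00238). Smad1 fell from 9.0 and 8.37 to 6.66 and 5.77, 5.54-fold (adjusted p = 0.00213). In iPSC 2i Bmp4 was at 4.97 and 7.09, so 1 of its arrays was as low as the sorted cells, whereas Smad1 was at 7.86 and 7.44, above both sorted arrays. Gata2, a factor of trophoblast and blood that BMP induces in several settings, rose from 3.37 and 3.42 to 6.84 and 4.96 (at least 3.73-fold, adjusted p = 0.00584). These 3 calls held on the deposited values without any array. The other kept Gata2 probe set moved by only 0.49, with means under 4 in both groups, and was not called (adjusted p = 0.207). Id4 rose by 0.92 ± 0.31 and was lost without iPSC MEF a (0.218), iPSC MEF b (0.0867) or Sox2-positive a (0.245). In the list 2 of 18 rose and 2 fell.

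In the Nodal and TGF-beta list 1 of 18 rose and 1 fell. Tgfbi, a secreted matrix protein induced by TGF-beta, rose from 3.95 and 2.50 to 7.34 and 8.27, at least 14-fold (difference 4.58 ± 0.51, adjusted p = 0.000998), and stayed called on 3 scalings under every omission. It was at 8.92 and 8.10 in the Sox2-negative fraction and 8.80 and 8.41 in iPSC 2i, so iPSC MEF was the low group. Fst, the secreted activin antagonist, was faint, and fell from 4.34 and 4.61 to 2.64 and 2.79, at least 1.39-fold. Of 20 FGF and ERK genes 1 rose: Fgfr4, a receptor, went from 2.93 and 3.40 to 5.49 and 6.64, at least 4.18-fold (adjusted p = 0.00848), and was at 2.22 on both Sox2-negative arrays. Its call was lost without iPSC MEF a (0.0664).

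Among the 24 genes with the largest changes, rises and falls differed in which of the 2 Sox2-positive arrays was mostly the higher. In 10 of the 12 largest rises Sox2-positive array a exceeded array b by over 1 log2 unit, and in 7 of the 12 both Sox2-negative arrays lay above both Sox2-positive arrays. Of the 12 largest falls none had array a above b by over 1 log2 unit, and 3 had both Sox2-negative arrays above both Sox2-positive arrays. The arrays were not always close in the falls. Array b lay above a by over 1 log2 unit for Bmerb1, Bcl10, Ajuba and Zfp423, whose values are given further on. Among the rises it did so for Slc11a1 (9.18 and 10.43). Both Sox2-positive arrays lay above all 4 iPSC arrays in 10 of the 12 rises, and below all 4 in 9 of the 12 falls. Over all genes called on 3 scalings this held for 159 of 456 rises and 701 of 732 falls, counts that the higher medians of the iPSC 2i arrays push down for rises and up for falls.

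**Figure D3:**
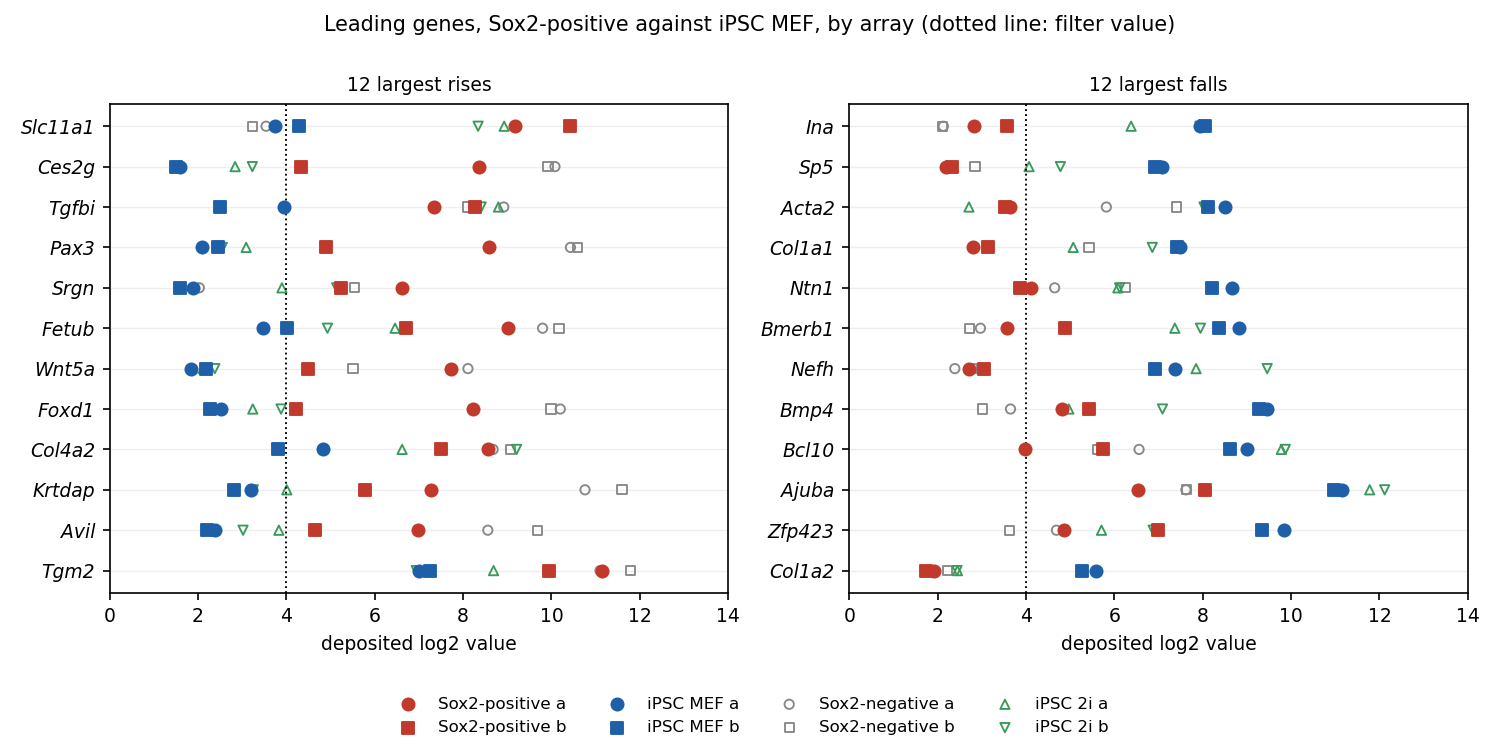
Deposited log2 value (horizontal axis) of the 12 largest rises (left) and 12 largest falls (right) on each array, with filled symbols for the compared groups, open symbols for Sox2-negative and iPSC 2i arrays and a dotted line at 4. For Ces2g, Pax3, Wnt5a and Foxd1 the red circle (array a) lies over 3 log2 units right of the red square (array b), towards the Sox2-negative symbols, whereas Slc11a1 is near background in that fraction.

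Some genes of the neural crest, the migratory cells that leave the dorsal neural tube, were higher in the fraction than in iPSC MEF, unequally between its arrays. Pax7, Sox9, Sox10, Tfap2b and Ednrb of the same list were under the filter. Pax3, a paired box factor of crest and muscle precursors, was at 8.59 and 4.89 against 2.10 and 2.46 in iPSC MEF, at least 6.68-fold (difference 4.46 ± 0.99, adjusted p = 0.00955). Foxd1, a forkhead factor of stroma and facial mesenchyme, was at 8.22 and 4.21 against 2.53 and 2.28, at least 4.64-fold (adjusted p = 0.0215). Tfap2a, a regulator of crest and surface ectoderm, was at 7.06 and 4.18 against 3.31 and 2.13, at least 3.07-fold (adjusted p = 0.0202). Zic1, at 5.90 and 3.20 against 1.67 and 1.55, completed 4 of 12 tested crest genes that rose (33.3%), with none fallen on 3 scalings and 2 lower on the deposited values. The Sox2-negative fraction was above both sorted positive arrays for all 4, between 7.65 (Zic1) and 10.59 (Pax3).

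The crest calls did not hold without every array. Pax3 lost its call without iPSC MEF a (adjusted p = 0.0665). Foxd1 kept it only without Sox2-positive b (0.0022), with an adjusted p between 0.0655 and 0.101 otherwise. Tfap2a was lost without iPSC MEF a (0.0529), iPSC MEF b (0.131) or Sox2-positive a (0.0751), and Zic1 without iPSC MEF a (0.0751) or b (0.0771). The part of Sox2-negative cells in the positive gate of array a was not tested. Fabp4, the fatty acid binding protein and a marker of fat cells, was at 12.15 and 11.25 in the Sox2-negative fraction and at 5.43 and 5.14 in the Sox2-positive one. Fabp4 rose against iPSC MEF (2.16 and 2.05) by at least 2.44-fold (adjusted p = 0.00675), while Adipoq and Pparg stayed under 4 on both Sox2-positive arrays. The other kept Fabp4 probe sets had means under 4 in both groups and were not called (adjusted p = 0.494 and 0.0791). The mean of its probe sets was still called (0.0257).

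Hox genes, which keep the position of a fibroblast along the body axis, were mostly faint or under the filter. Of 29 in the list 14 were under the filter, 5 were not on the table and 10 were tested, 5 of them under 4 on every array of both groups. In 6 of the 10 both Sox2-positive arrays lay above both iPSC MEF arrays, and in none below. No such count over all genes is given here, and 2 arrays a group can lie apart by chance. A shift of the Hox list is therefore not read from it. The median difference was 1.42, but 0.0 with values under 4 held at that limit, against -0.455 for all genes. Hoxb4 was the 1 that rose, at 5.24 and 3.74 against 2.48 and 2.26 (at least 1.40-fold, adjusted p = 0.00878), below 5.80 and 5.76 in the Sox2-negative fraction, and it lost its call without iPSC MEF b (0.0573).

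Endoderm genes gave the largest share of rises among lists of 10 or more tested genes, 7 of 19 (36.8%) with none fallen and 1 lower on the deposited values. Visceral and parietal endoderm are the extraembryonic layers that make plasma proteins and basement membrane. Gata6, Sox17, Foxa2, Afp, Ttr, Apoa1 and Amn of this list were under the filter. Of the 19 tested, 6 lay under 4 in both groups. The median difference was 0.67, but 0.0 with faint genes held at the limit of 4. Hnf4a and Gata4, 2 of the 7, lay under 4 in both groups and have no fold. Fetub, a plasma protease inhibitor, was at 9.02 and 6.71 against 3.48 and 4.01, 17.4-fold (difference 4.12 ± 0.74, adjusted p = 0.00399), and the call held without each array. Col4a2, a basement membrane collagen, was at 8.57 and 7.51 against 4.84 and 3.82, 13.1-fold (adjusted p = 0.00625), and lost its call without iPSC MEF b (0.0524). Its partner Col4a1 was at 9.78 and 7.64 against 5.93 and 5.83, 7.11-fold (adjusted p = 0.0262), and lost it without iPSC MEF a (0.107), iPSC MEF b (0.11) or Sox2-positive a (0.163). The Sox2-negative fraction held both collagens and Fetub at 8.68 or more on each array, so it held these 3 genes at or above the Sox2-positive level of array b. In iPSC 2i Col4a1 was at 7.19 and 9.67, Col4a2 at 6.62 and 9.21 and Fetub at 6.46 and 4.93.

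Cubn and Apoe, 2 further endoderm rises, were lower in the Sox2-negative fraction than in the positive one. Cubn, an endocytic receptor of visceral endoderm, was at 4.07 and 4.06 against 2.19 and 1.93 in iPSC MEF and 2.31 and 3.07 in Sox2-negative cells, and lost its call without iPSC MEF b (0.0532). Apoe, the lipid carrier, was at 5.76 and 5.95 against 4.21 and 4.63, with 3.27 and 3.44 in Sox2-negative cells and 8.28 and 7.47 in iPSC 2i, and lost it on leaving out any array (0.0864 to 0.178). Krt7, a keratin of simple epithelia and trophoblast, was at 3.93 and 4.48 against 2.24 and 2.14, at least 1.15-fold (adjusted p = 0.00402), and held. In the trophoblast list 1 of 9 rose (Krt7) and 1 fell (Ets2).

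Neuronal genes changed in both directions. Of 22 tested, 4 fell (18.2%) and 2 rose (9.09%), with a median difference of -0.07 against -0.455 for all genes. The rises were Zic1, given with the crest genes, and Mapt, the microtubule protein tau, at 3.91 and 4.63 against 2.47 and 2.76, which lost its call without iPSC MEF a (adjusted p = 0.107), iPSC MEF b (0.065) or Sox2-positive b (0.0891). Nefh and Nefl encode the heavy and light neurofilament subunits, Ina the related alpha-internexin, and Ntn1 the guidance cue netrin. Ina fell from 7.93 and 8.06 to 2.82 and 3.58, at least 15.9-fold (difference -4.79 ± 0.62, adjusted p = 0.00146). Nefh fell from 7.37 and 6.93 to 2.72 and 3.05, at least 8.88-fold (adjusted p = 0.00136). Ntn1 fell from 8.67 and 8.21 to 4.11 and 3.86, 21.9-fold (difference -4.46 ± 0.46, adjusted p = 0.000862). Nefl fell from 10.54 and 10.50 to 7.73 and 6.98, 8.97-fold (adjusted p = 0.00225). In iPSC 2i Ina (6.38 and 7.94), Nefh (7.85 and 9.46) and Ntn1 (6.08 and 6.12) also lay above the Sox2-positive arrays on both arrays, and these 4 calls held without each compared array. In the Sox2-negative fraction Nefl was at 9.03 and 10.09, above the Sox2-positive arrays, and Ina and Nefh were under 3.

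**Figure D4:**
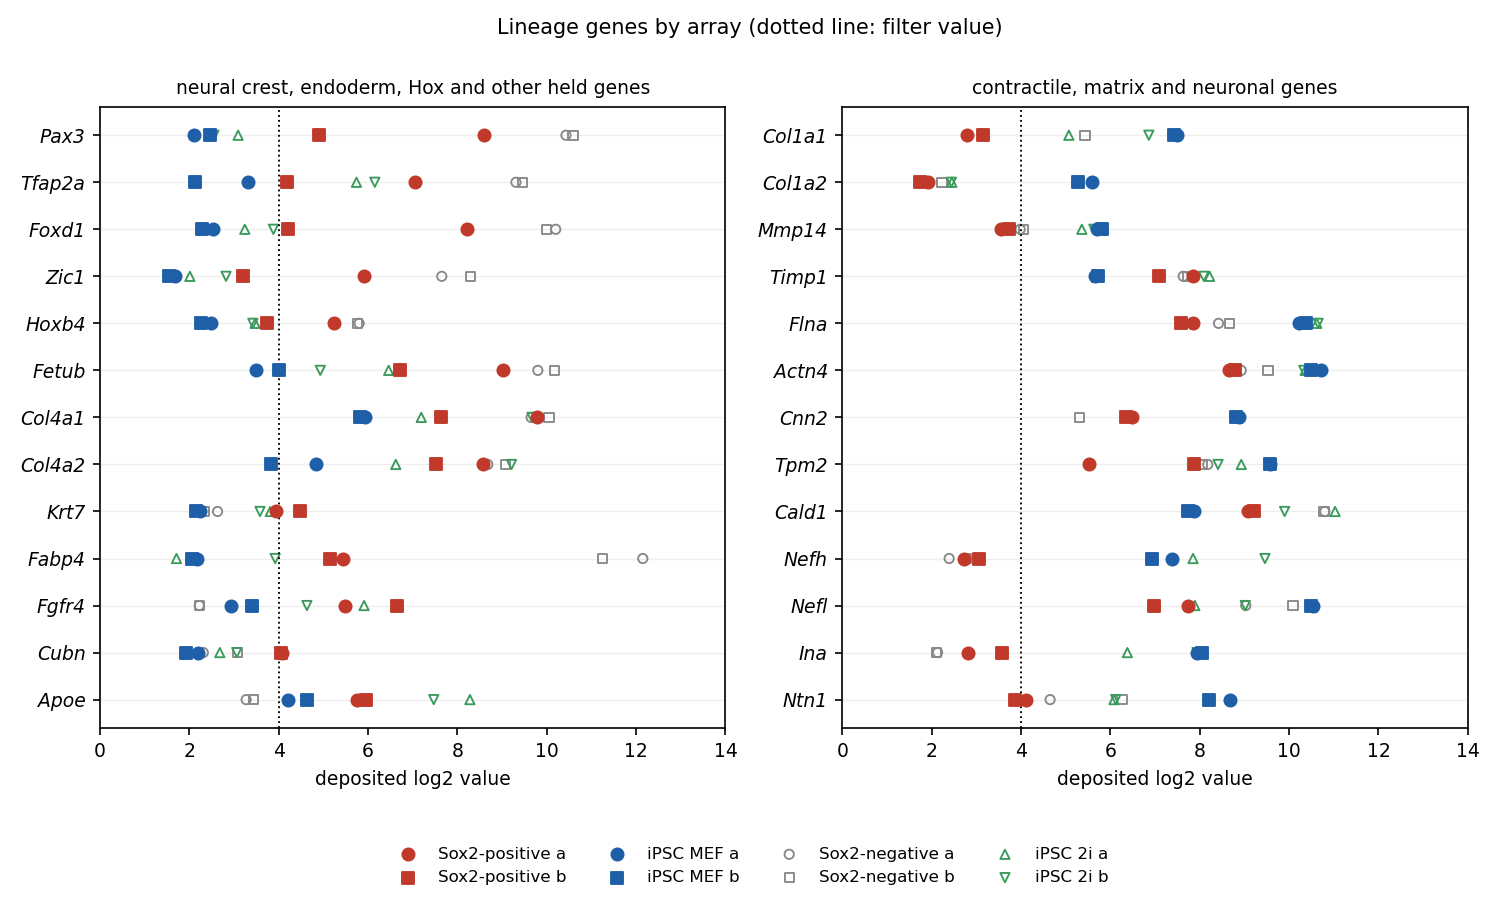
Deposited log2 value (horizontal axis) of 26 lineage genes on each array, with filled symbols for the compared groups, open symbols for Sox2-negative and iPSC 2i arrays and a dotted line at 4. Crest genes and type IV collagens are red right of blue with grey further right or level, while all genes of the right panel but Timp1 and Cald1 are red left of blue.

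The summed feeder marker level and type I collagen were lower in the Sox2-positive fraction than in iPSC MEF, whose culture contains MEFs. Of 11 fibroblast or feeder markers 6 were tested, and Thy1, Postn, Dcn, Lum and Fap were under the filter. The summed log2 level of the 6 was 6.22 and 5.29 in Sox2-positive cells, 9.25 and 9.01 in iPSC MEF, 8.79 and 8.19 in Sox2-negative cells and 5.85 and 8.73 in iPSC 2i. The single markers did not all fall. Prrx1 was at 5.30 and 1.96 against 2.05 and 1.62 in iPSC MEF, and Twist2 at 2.27 and 2.35 against 2.04 and 1.86. Col3a1 was at 2.79 and 2.70 against 3.61 and 4.14. Limma called none of these (adjusted p = 0.314, 0.592 and 0.253). Col1a1, a chain of type I collagen, fell from 7.49 and 7.43 to 2.80 and 3.15, at least 11-fold (difference -4.49 ± 0.81, adjusted p = 0.00417), and Col1a2, its partner chain, from 5.59 and 5.27 to 1.92 and 1.74, at least 2.69-fold (adjusted p = 0.000847). Both calls held without each array. How much of these falls is RNA of the MEFs in the iPSC MEF culture was not tested.

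In the contractile list 6 of 20 genes fell (30.0%) and 1 rose. Flna, an actin crosslinker, fell from 10.23 and 10.38 to 7.86 and 7.58, 6.0-fold (difference -2.58 ± 0.25, adjusted p = 0.000847), and Cnn2, a calponin, from 8.89 and 8.82 to 6.48 and 6.34 (adjusted p = 0.00225). Actn4, another actin crosslinker, fell from 10.71 and 10.48 to 8.65 and 8.80 (adjusted p = 0.00179). In iPSC 2i, whose arrays have higher medians, Flna was at 10.62 and 10.65, Cnn2 at 8.85 and 8.87 and Actn4 at 10.36 and 10.33. Acta2, smooth muscle actin, fell from 8.50 and 8.13 to 3.65 and 3.52, at least 19.9-fold (adjusted p = 0.0239), but differed between the iPSC 2i arrays (2.71 and 8.03) and lost its call on leaving out any compared array (0.0748 to 0.115). Tpm2 and Cav1 lost theirs without iPSC MEF a (0.0536 and 0.08). Cald1, caldesmon, was the rise, at 9.07 and 9.21 against 7.88 and 7.73, and lost it on leaving out any array (0.0569 to 0.0924).

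Within the fibroblast list of 35 tested genes 3 fell (8.57%, near the share over all genes) and 1 rose, and the median difference was -0.425. Mmp14, a membrane metalloprotease, fell from 5.71 and 5.81 to 3.56 and 3.72, at least 3.39-fold (adjusted p = 0.000998). Timp1, an inhibitor of metalloproteases, rose from 5.66 and 5.73 to 7.84 and 7.08, 3.40-fold (difference 1.76 ± 0.29, adjusted p = 0.0028), near the Sox2-negative level of 7.63 and 7.72. Both calls held without each array.

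Epithelial genes gave few calls. Cdh1, the E-cadherin of epithelial and pluripotent cells, was at 10.44 and 11.42 against 12.30 and 12.33, called lower on the deposited values (adjusted p = 0.0201) but not after centring (0.0834) or quantile normalization (0.285), nor without iPSC MEF a (0.0919), iPSC MEF b (0.0906) or Sox2-positive a (0.118). It was at 6.88 and 7.07 in the Sox2-negative fraction. Of 24 epithelial genes 1 rose and 2 fell. Crb3, an apical polarity protein, fell from 9.0 and 9.34 to 6.27 and 6.97 (adjusted p = 0.00483), although another of its probe sets moved by 0.295 in the other direction. Esrp1, an epithelial splicing regulator, fell from 6.80 and 6.56 to 3.72 and 4.34 and lost its call without iPSC MEF a (0.0877), iPSC MEF b (0.0649) or Sox2-positive a (0.0814). Cldn4, a tight junction claudin, rose from 4.43 and 4.94 to 6.94 and 6.26, above the 4.46 and 4.08 of iPSC 2i, and lost it without iPSC MEF a (0.0958) or Sox2-positive a (0.0813).

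Slc11a1 was the largest rise of all. It encodes a metal transporter of late endosomes and lysosomes best known from macrophages. Its values were 9.18 and 10.43 in Sox2-positive cells and 3.75 and 4.28 in iPSC MEF, 55.3-fold (difference 5.79 ± 0.73, adjusted p = 0.00133), and the call held without each array. It was near background in the Sox2-negative fraction (3.54 and 3.24) and high in iPSC 2i (8.93 and 8.34), so iPSC MEF and Sox2-negative cells were the low groups. Cd68, a lysosomal membrane protein, was likewise lower in those groups, at 6.96 and 6.90 against 5.14 and 5.51 in iPSC MEF and 4.16 and 4.17 in Sox2-negative cells, and lost its call without iPSC MEF a (0.0665). Srgn, the proteoglycan serglycin, was at 6.61 and 5.23 against 1.88 and 1.59 and kept its call only without Sox2-positive b (0.0245). Of 9 macrophage markers Ptprc, Tyrobp, Csf1r, Spi1, Lyz2, Adgre1 and C1qa were under the filter, and Fcer1g was under 4 on both Sox2-positive arrays. Of the 8 tested genes of the macrophage and blood list 3 rose and 1 fell.

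Further leading rises were Tgm2, Krtdap, Avil and Ces2g. Tgm2, transglutaminase, rose from 7.0 and 7.26 to 11.15 and 9.95, 10.7-fold (difference 3.42 ± 0.58, adjusted p = 0.0032), level with the Sox2-negative array a (11.10). Krtdap, a keratinocyte protein, rose to 7.27 and 5.77 from 3.19 and 2.81, at least 5.74-fold (adjusted p = 0.00237), and stood at 10.76 and 11.60 in the Sox2-negative fraction. Avil, an actin regulator of the villin family, rose to 6.97 and 4.64 from 2.39 and 2.21, at least 3.49-fold (adjusted p = 0.00566). These 3 calls held without each array. Ces2g, a carboxylesterase, was at 8.37 and 4.34 against 1.60 and 1.51 and kept its call only without Sox2-positive b (0.00355), with an adjusted p between 0.0693 and 0.0772 otherwise.

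The remaining leading falls were 3 genes high in both iPSC groups and Zfp423. Ajuba, a LIM scaffold that inhibits Hippo signalling, fell from 11.16 and 10.98 to 6.53 and 8.05, 13.7-fold (difference -3.78 ± 0.44, adjusted p = 0.0011), with 11.78 and 12.12 in iPSC 2i. Bcl10, an adaptor of NF-kappaB signalling, fell from 9.01 and 8.61 to 3.98 and 5.74, 15.5-fold (adjusted p = 0.00152), with 9.78 and 9.87 in iPSC 2i. Bmerb1 fell from 8.83 and 8.36 to 3.58 and 4.88, 20.6-fold (adjusted p = 0.00273), with 7.37 and 7.95 in iPSC 2i. Zfp423, a zinc finger factor that takes part in BMP signalling, fell from 9.85 and 9.35 to 4.85 and 7.0, 12.8-fold (adjusted p = 0.00449), and iPSC 2i had values between those of the sorted arrays (5.71 and 6.88). The calls held without each array, and for all 4 Sox2-positive array b was the higher of the pair.

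Falls on 3 scalings among cell division genes came at a rate near that over all genes. On the deposited values alone, replication genes were called lower more often than all genes. Of 33 cell cycle genes 3 fell (9.09%) and none rose on 3 scalings, with 9 lower on the deposited values. Of 30 DNA replication and repair genes 3 fell and none rose on 3 scalings. On the deposited values 24 of these 30 were lower, against 29.8% of all genes. The median difference of the replication list was -1.16, and of the cell cycle list -0.49, near the -0.455 of all genes. Ccne1, the cyclin that drives entry into S phase and is high in pluripotent cells, fell from 12.01 and 11.79 to 8.67 and 9.04, 8.25-fold (difference -3.04 ± 0.40, adjusted p = 0.00151). Cdc25a, the phosphatase that activates its kinase, fell from 8.70 and 7.90 to 5.23 and 5.42, 7.86-fold (adjusted p = 0.001). Fen1, the flap nuclease of Okazaki fragment processing, fell from 12.16 and 11.98 to 9.67 and 9.77, 5.10-fold (adjusted p = 0.0012). These calls and those of Nek2, Exo1 and Lig1 held without each array. The other kept probe sets of Cdc25a and Exo1 were not called (adjusted p = 0.0788 and 0.589).

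In the list of p53 targets and senescence barriers 3 of 18 rose (16.7%) and none fell, with 2 lower on the deposited values. Pmaip1 (Noxa), a pro-apoptotic p53 target, rose from 7.12 and 6.75 to 8.70 and 9.62, 4.68-fold (difference 2.23 ± 0.35, adjusted p = 0.00252), and held without each array. It was high in iPSC 2i as well (9.15 and 8.56). Cdkn1b (p27), an inhibitor of cyclin E complexes, rose from 8.39 and 8.86 to 9.58 and 9.88 (adjusted p = 0.0147) and lost its call without iPSC MEF a (0.108) or Sox2-positive b (0.0604). Phlda3, an inhibitor of Akt, lost it on leaving out any array (0.064 to 0.272).

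Several stress genes, of a class that often rises when cells are dissociated, were lower in the sorted cells. Of 31 immediate early and stress genes 5 fell and 1 rose (16.1% and 3.23%). Dusp1, an early phosphatase of MAP kinases, fell from 11.51 and 11.30 to 9.07 and 9.05, 5.08-fold (difference -2.35 ± 0.24, adjusted p = 0.000847). Hsph1, a chaperone of the heat shock response, fell from 11.38 and 10.84 to 9.31 and 8.54, 4.55-fold (adjusted p = 0.00191), and both held without each array. In iPSC 2i Dusp1 was at 9.56 and 9.41, nearer the sorted cells, and Hsph1 at 11.03 and 11.30, near iPSC MEF. Hspa1b (6.34 and 6.82 against 8.48 and 9.03) and Dnajb1 (9.41 and 9.20 against 11.22 and 11.09) fell too, but were not called with the mean of their probe sets (adjusted p = 0.0561 and 0.0759), and a second Dnajb1 probe set moved by 0.775 in the other direction. Fosb lost its call without iPSC MEF a (0.0787), and Btg2, the rise, without iPSC MEF a (0.0581), iPSC MEF b (0.0611) or Sox2-positive a (0.0645).

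Respiratory and ribosomal genes gave few calls. Of 33 respiratory chain genes 1 fell, Sdha of complex II, from 11.69 and 11.52 to 9.78 and 10.02 (adjusted p = 0.0017), and of 28 cytosolic ribosomal protein genes limma called none on 3 scalings (2 were lower on the deposited values and 10 had an unadjusted p under 0.05). Of 20 glycolysis genes 3 rose: Eno2, Aldoc and Pfkm, which encode isoforms typical of nerve and muscle. Pfkm was at 5.73 and 5.41 against 4.15 and 4.42 (2.44-fold, adjusted p = 0.0136) and lost its call without iPSC MEF a (0.0906) or Sox2-positive a (0.0713). Eno2 lost it without iPSC MEF a (0.0645), iPSC MEF b (0.0793) or Sox2-positive a (0.0525), and Aldoc on leaving out any array (0.0937 to 0.158). Pfkm, Eno2 and Aldoc were at or above the Sox2-positive mean in at least 1 iPSC 2i array.

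In the list of MHC class I and interferon genes 2 of 14 rose and 1 fell. B2m, the light chain of MHC class I molecules, usually low in pluripotent cells, rose from 7.43 and 7.12 to 9.42 and 8.82, 3.59-fold (difference 1.84 ± 0.31, adjusted p = 0.00325), and held without each array. It was higher still in the Sox2-negative fraction (10.74 and 10.86) and in iPSC 2i (10.17 and 9.50). Gbp2, an interferon-induced GTPase, was seen in iPSC MEF alone (5.06 and 5.26) and fell by at least 2.23-fold, with 2.13 or less on the Sox2-positive, Sox2-negative and iPSC 2i arrays. Bst2, which tethers virus particles, rose from 4.18 and 4.78 to 6.14 and 6.31 and lost its call on leaving out any array (0.0566 to 0.139).

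**Figure D5:**
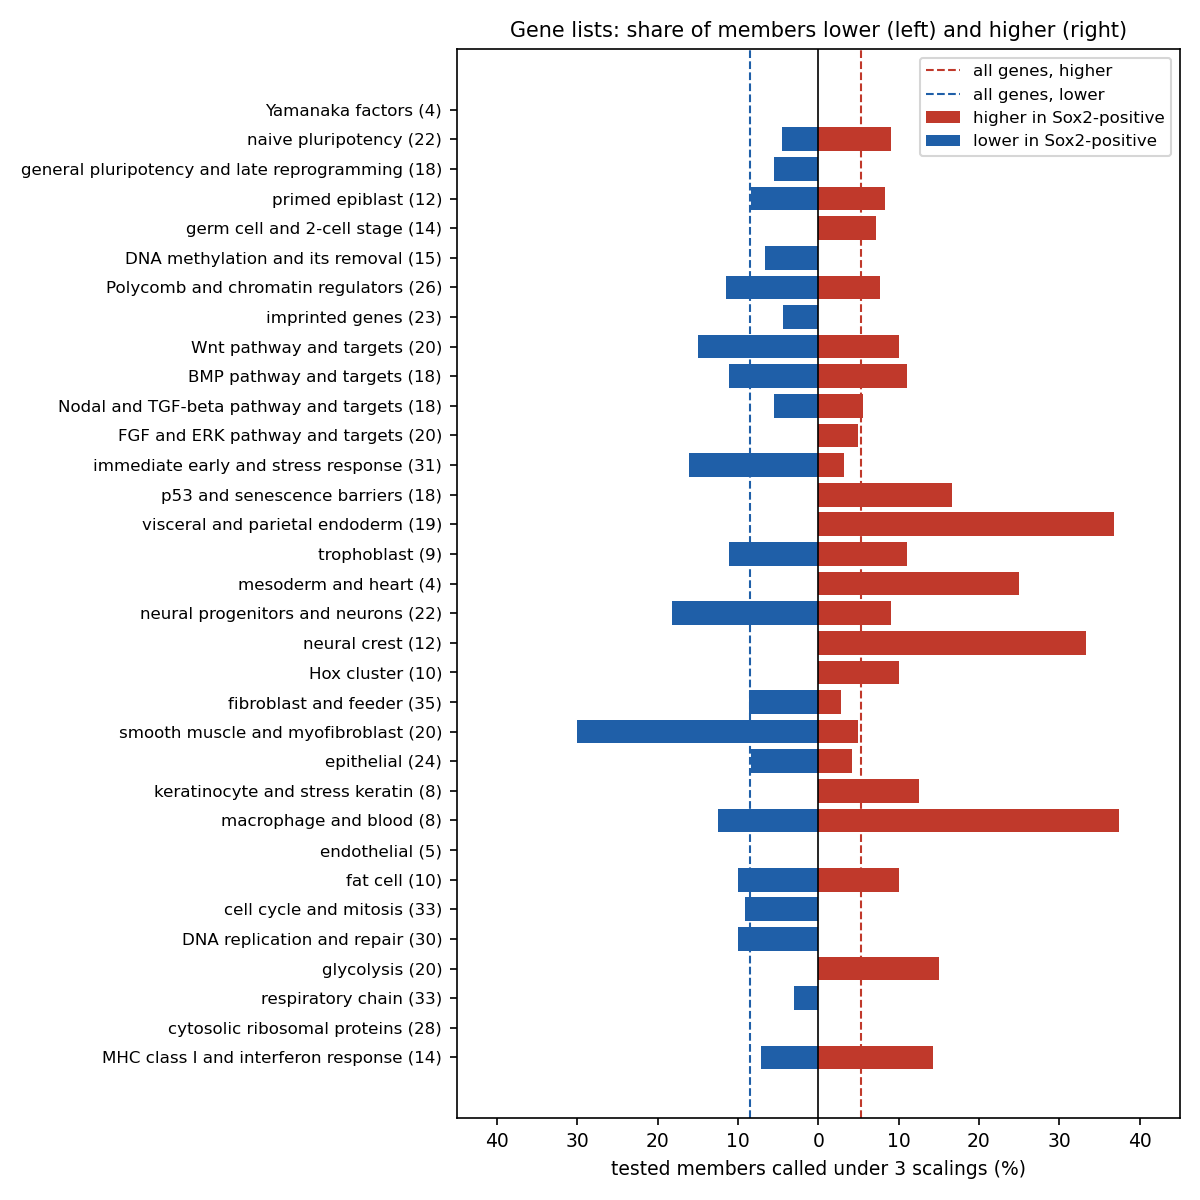
Share of tested members of each gene list (number tested in brackets) that rose (red, right) or fell (blue, left) on all 3 scalings, in percent, with dashed lines at the shares over all genes, 5.3% and 8.51%. Endoderm (36.8%) and neural crest (33.3%) reach far right with nothing to the left, and contractile genes reach furthest left of the lists drawn (30.0%).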

How the data were processed

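Expression was measured on 10 single-channel Affymetrix mouse arrays, 2 in each of 5 groups. Per the labels the authors extracted RNA with Trizol and computed the deposited log2 values by GCRMA in the affy package. Software versions were not given in the sources used. Whether all arrays were normalized together is not stated. Scanner files were not used here. Of 22690 probe sets 64 were controls, and 20380 carried 1 gene symbol in the platform annotation, 691 several and 1555 none. Only the first were named and tested.

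Probe sets above 4 on at least 2 arrays were kept, and the one of highest mean stood for each of 8599 genes. Limma 3.58.1 in R 4.3.3 was fitted with 1 mean per group over all 10 arrays (residual degrees of freedom 5, prior 4.1), with Benjamini-Hochberg adjustment over 8599 genes at 0.05. The fit was repeated on median-centred and quantile-normalized values. The fit was tested on simulated data. A mean under 4 was set to 4 for folds given as lower limits. The number of arrays limits the precision.

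Text genes were the 12 largest rises and falls called on 3 scalings without overlap and with the higher group above 4 on both arrays (predicted genes and clone names passed over), up to 6 members per list in order of p, and a fixed set of regulators. The members, lists and comparison were chosen with earlier results of these data known. Alternatives covered scaling, filter, probe sets, arrays fitted, array weights, a replicate block and omission of each array. The labels do not say that the letters pair the arrays, so the letters were not taken as pairs. Sox2-positive a and iPSC MEF a did not deviate together from their group means (r = 0.03). Same-lettered arrays of the other groups were not checked. Plots used Python 3.11.15 and matplotlib 3.10.9.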

Additional observations from a re-analysis of the deposited data

How the results depend on the processing

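On the deposited values 3088 genes were called, 527 higher and 2561 lower (4002 at an unadjusted p under 0.05). Median centring gave 2168 (1009 higher, 1159 lower) and quantile normalization 1598 (630 higher, 968 lower), with a median of all genes of -0.106. The 1188 genes called on 3 scalings became 722 with the 6 arrays of high 18S signal alone, and between 993 and 1502 with no filter, a filter at 5, the mean of the probe sets, the compared arrays alone or array weights. With the replicate block 3068 genes were called on the deposited values and 1214 on 3 scalings, and Tcl1 (adjusted p = 0.058), Id4 (0.0549) and Phlda3 (0.0554) lost their calls. Leaving out an array in turn gave 1192 to 2672 genes on the deposited values and 5 to 1177 on 3 scalings, in each case fewest without iPSC MEF a. The difference changed sign for Nanog (0.16 centred, 0.41 quantile), Dppa5a (0.19 and 0.34), Utf1 (0.20 and 0.42), Esrrb (0.047 quantile) and Rian (0.14 centred), none of which was called. It did so too for Myc (between -2.68 and 0.12 over the omissions) and Dlk1 (-0.36 to 2.89). The causes of these changes were not tested. The 2 arrays a group, and a low group near background in 140 of the 456 rises, limit what can be resolved.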

Other observations

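Outside the lists used above, 2 further groups of genes stood out, and for both the lists were written after the values had been seen, so that their counts are a description with no test. Genes of the lysosome, the organelle that degrades proteins and lipids, more often rose than fell in Sox2-positive cells. Of 57 tested lysosomal genes 15 rose on all 3 scalings (26.3%) and none fell, while 5 were lower on the deposited values, with a median difference of 0.33 against -0.455 for all genes. Ctsd, the protease cathepsin D, rose from 6.75 and 7.26 to 8.98 and 9.29, 4.38-fold (adjusted p = 0.0016), and Ctsa, a protective carboxypeptidase, from 6.90 and 7.52 to 8.49 and 8.49 (adjusted p = 0.0112). Psap, the precursor of the saposins, rose from 3.65 and 3.60 to 6.10 and 5.48, at least 3.46-fold (adjusted p = 0.00237), and Gm2a, which presents gangliosides for breakdown, from 7.96 and 8.29 to 9.19 and 9.37 (adjusted p = 0.0309). Ctsd, Ctsa, Psap and Gm2a had means of 9.95, 9.79, 9.94 and 10.18 in iPSC 2i, on arrays with higher medians. Their Sox2-negative means were 8.62, 6.96, 5.33 and 8.01, above iPSC MEF for Ctsd and Psap and near it for Ctsa and Gm2a.

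The upstream sequence of Ctsd is shown because the E-box letters CACGTG, a palindrome read alike on both strands, are the core that TFEB and related factors bind at lysosomal genes. The window is the 250 bases before the start from RefSeq (GRCm38.p6), chr7:142387828-142388077 on the minus strand, with matches in capitals.
Ctsd: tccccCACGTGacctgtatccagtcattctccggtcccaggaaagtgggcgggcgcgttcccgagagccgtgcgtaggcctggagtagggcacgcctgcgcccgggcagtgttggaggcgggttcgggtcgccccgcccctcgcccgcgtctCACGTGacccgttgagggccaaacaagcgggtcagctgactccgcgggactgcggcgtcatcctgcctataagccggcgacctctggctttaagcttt
It holds 2 matches, 245 and 98 bases before the start. Of the 15 lysosomal genes that rose 13 had a window, and 4 of them held the letters in at least 1 window (Clcn6, Cln3, Ctsa and Ctsd). Of the 9091 windows of tested genes 8.5% held them. That share counts windows and not genes, so the 2 figures are not compared. A match is not a binding site, and factor binding was not measured.

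Genes of ribosomal RNA processing, which cut and fold the precursor of ribosomal RNA in the nucleolus, went the other way. Of 73 tested 23 fell on all 3 scalings (31.5%) and none rose, and 54 were lower on the deposited values, with a median difference of -1.49. Wdr46, a small subunit processing factor, fell from 10.60 and 10.76 to 7.79 and 7.77, 7.46-fold (adjusted p = 0.000847), and was as low in iPSC 2i (mean 7.85). Eif6, which keeps the ribosomal subunits apart, fell from 10.76 and 10.86 to 7.97 and 8.2, 6.61-fold (adjusted p = 0.000998), Bop1 from 9.03 and 9.05 to 6.94 and 6.91 (adjusted p = 0.0015) and Polr1b, a subunit of RNA polymerase I, from 8.07 and 8.09 to 5.31 and 6.22 (adjusted p = 0.00349). Ribosomal proteins themselves gave no call on 3 scalings, as described above. The Sox2-negative means of Eif6 (8.66), Bop1 (7.13) and Polr1b (5.86) were also below iPSC MEF.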
